A study of Arabidopsis thaliana with 30 samples.

Results

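The response of the epidermis and lateral root cap of the Arabidopsis thaliana root to acidic medium was read from 6 of the 30 arrays of the series. The arrays were chosen by sample title, and every probe set on them that is not an Affymetrix control was used, 22746 in all. Roots were of the Columbia ecotype and carried the reporter pWER::GFP, in which the promoter of WEREWOLF drives green fluorescent protein in the epidermis and the lateral root cap. At 5 days seedlings were transferred for 24 h, either to pH 4.6 (3 arrays) or to pH 5.7 (3 arrays), and cells were taken from roots of 6 days. Both media held Murashige and Skoog salts, 3 mM DMG, 1% sucrose and 1% agar, and the labels name no difference between them but the pH, which was 5.7 before transfer. Roots were protoplasted, fluorescent cells were sorted, and their RNA was amplified in 2 cycles before hybridisation to ATH1 arrays. The other 24 arrays held columella (Pet111::GFP), cortex (pCOR315.1::GFP), endodermis and quiescent center (pSCR::GFP) and stele cells (pWOL::GFP) of the same ecotype, age and media, with 3 arrays of each at each pH. The sort took a mixed population, all groups were protoplasted, and nothing in the labels states whether the replicates were grown apart. P-values therefore rest on the scatter among replicates of the 30 arrays alone, which could be technical.

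The root epidermis is the layer that meets the medium. In Arabidopsis its cells lie in files, and a cell over the cleft between cortical cells becomes a hair cell, while WEREWOLF and its partners keep the cells of the other files hairless. Hair cells grow at the tip, where expansins, extensins, peroxidases and pectin enzymes remodel the wall, and apoplastic pH is one of the conditions that this growth depends on. The lateral root cap flanks the meristem, and its outer cells undergo programmed death and are shed.

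The sorted cells were set against their defining markers. Of 10 measured genes of the root hair, non-hair and epidermis identity, and lateral root cap lists, 6 had their highest mean in these arrays. The carboxypeptidase gene scpl48 was highest in columella (15257 ± 1774 against 5280 ± 1449 here, SD, n = 6). AT4G18425 was highest in stele (420 ± 120 against 111 ± 57.3 here), as was SCN1 (2172 ± 278 against 2080 ± 505 here). EXPA7 and EXPA18, expansins of growing root hairs, averaged 2197 ± 1814 and 1284 ± 1255 (SD, n = 6) in epidermis and lateral root cap, and next came stele with 993 ± 733 and 429 ± 281. AT4G04460, an aspartic protease gene of dying cap cells (PASPA3), averaged 2428 ± 1017 (SD, n = 6) here and 768 ± 209 or less elsewhere. TRY, of the non-hair and epidermis identity list, was near or under the pseudocount in every cell type, and the reporter's own gene was not analysed here. Of the other cell types' markers, AT1G72490 of the columella list averaged 19.9 ± 9.01 against 829 ± 228 in columella, and AT1G09750, the cortex reporter gene, 35.5 ± 13.6 against 2769 ± 1557 in cortex. The stele marker LHW was less distinct, at 151 ± 65.7 against 323 ± 137 in stele. Some listed markers peaked outside their own tissue. PHV of the stele list was highest in columella, and AGL42 and AT4G28100 of the endodermis list in cortex. AT1G62500 of the cortex list stayed near the pseudocount in every cell type (means of 8.74 to 17.1), so its order among them is not read.

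Replicates correlated across probe sets with r of 0.973 to 0.980 at pH 4.6 and 0.958 to 0.977 at pH 5.7, and no array duplicated another. Median signals lay between 45.3 and 54.0. One library stood apart: pH 5.7 replicate 2 correlated with the pH 4.6 arrays at 0.963 to 0.970, against 0.946 to 0.964 for the other pH 5.7 arrays. On the probe sets called below it lay at a median of 0.37 of the way to the pH 4.6 mean, the other pH 5.7 arrays lay at -0.19 and -0.21, and it was the pH 5.7 array nearest to the pH 4.6 mean for 1017 of 1485. Its label was kept, it stayed in every comparison, and counts are given without it as well. The 3′ control probe set of GAPDH read 3.54 to 4.02 times its 5′ probe set at pH 4.6 and 4.07 to 4.66 times at pH 5.7, and that of ubiquitin 4.91 to 5.68 times at pH 4.6 and 4.67 to 5.41 times at pH 5.7. For actin the ratio was far larger, 36.4 to 114.8 at pH 4.6 and 32.8 to 73.2 at pH 5.7. Their part in the results was not tested.

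Signals differed with pH in 1485 probe sets (6.53% of those tested, limma with Benjamini-Hochberg adjusted p under 0.05), of which 1003 were higher (4.41%) and 482 lower (2.12%). Changes are log2 ratios of signal + 12, pH 4.6 over pH 5.7, given with their SE. The median log2 change was 0.97 among the risen and -1.22 among the fallen, against 0.02 over all probe sets, and 37 rose and 47 fell by at least 4-fold. A single gene could be given to 782 of them, 530 risen and 252 fallen, and in 731 the 3 pH 4.6 values did not overlap the 3 pH 5.7 values. Values that do not overlap were seen in 19.9% of all probe sets tested. Without pH 5.7 replicate 2 the fit called 1525 higher and 849 lower, and the counts fell to 680, 834 and 677 in all without pH 4.6 replicate 2, pH 5.7 replicate 1 and pH 5.7 replicate 3. A fit to the 6 arrays alone called 107 higher and 54 lower. With array medians set equal, which moved the median of all probe sets to -0.09, the split was 677 higher and 712 lower, so the excess of risen probe sets did not hold on that scale.

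AT5G09570, which encodes a small mitochondrial protein of the twin-cysteine CHCH type induced when respiration is disturbed, had signals of 392.2, 661 and 498 at pH 4.6, against 33.9, 90.4 and 33.4 at pH 5.7. Its log2 change was 3.12 ± 0.32 (SE, limma adjusted p = 4.38e-07), the largest rise of all single-gene probe sets with values that did not overlap. PDC2, a pyruvate decarboxylase that opens the ethanol branch of fermentation, had 389.9, 306 and 325 at pH 4.6, against 16.0, 62.4 and 64.5 at pH 5.7, a change of 2.69 ± 0.29 (adjusted p = 1.06e-06). For PDC2 the lowest pH 4.6 array lay more than 4 times above the highest pH 5.7 array. ICL, isocitrate lyase of the glyoxylate cycle, had 499.7, 634 and 544 at pH 4.6, against 94.7, 212 and 76.4 at pH 5.7, and here the highest pH 5.7 value was that of replicate 2. AT2G21640 (UPOX), a marker of oxidative stress in mitochondria, had 306, 336 and 229 at pH 4.6, against 43.2, 81.4 and 72.5 at pH 5.7, a change of 1.98 ± 0.28 (adjusted p = 4.69e-05). These 4 genes kept their calls without any one of the 6 arrays.

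Of the 10 measured genes of the mitochondrial stress list, 4 rose (4.41% of all probe sets did), none fell (2.12%), and all 10 had a positive change, with a median of 0.71 against 0.02 over all. This list, like the other lists below, was chosen with earlier results of these data known, so its counts are no independent support. The other risen members were AT2G41730, read by a probe set that may match related sequences, with 1035, 983 and 1092 at pH 4.6, against 357, 643 and 424 at pH 5.7 (1.15 ± 0.25, adjusted p = 0.00374), and NDB4, an external NADH dehydrogenase of mitochondria that moves no protons, with 377, 395 and 287 at pH 4.6, against 182, 209 and 166 at pH 5.7 (0.88 ± 0.21, adjusted p = 0.00807). NDB4 lost its call without pH 4.6 replicate 2 or pH 5.7 replicate 3 (adjusted p = 0.056 to 0.0606). Its relatives NDB2 (0.05 ± 0.17) and NDB3 (0.43 ± 0.30), the small heat shock protein gene AT5G51440 (0.18 ± 0.33) and the MATE carrier genes AT2G04050 (0.65 ± 0.35) and AT2G04070 (0.77 ± 0.34) did not pass. Neither did AT5G64400 (0.24 ± 0.19), a relative of AT5G09570. Of 3 measured fermentation and hypoxia genes PDC2 alone rose: lactate dehydrogenase, AT4G17260, had 466, 412 and 418 at pH 4.6, against 278, 487 and 299 at pH 5.7, values that overlap, and AT3G10040 (HRA1) stayed near the pseudocount of 12.

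AT5G15700, AT5G02050 and AT4G36580 were also among the 20 largest rises. AT5G15700, an RNA polymerase of the phage type that transcribes organelle genes (RPOTmp), had 59.4, 38.2 and 68.0 at pH 4.6, against 6.99, 3.51 and 6.09 at pH 5.7. The pH 5.7 values lie under the pseudocount, so the size of the change, 1.92 ± 0.30 (adjusted p = 0.000121), depends on that pseudocount. AT5G02050, a mitochondrial glycoprotein family gene, had 264, 259 and 303 at pH 4.6, against 39.99, 132 and 48.9 at pH 5.7. AT4G36580, an ATPase of the AAA type, had 94.6, 66.0 and 71.6 at pH 4.6, against 9.62, 7.02 and 14.2 at pH 5.7, near or under the pseudocount. Values of AT5G02050 and AT4G36580 did not overlap.

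**Figure D1:**
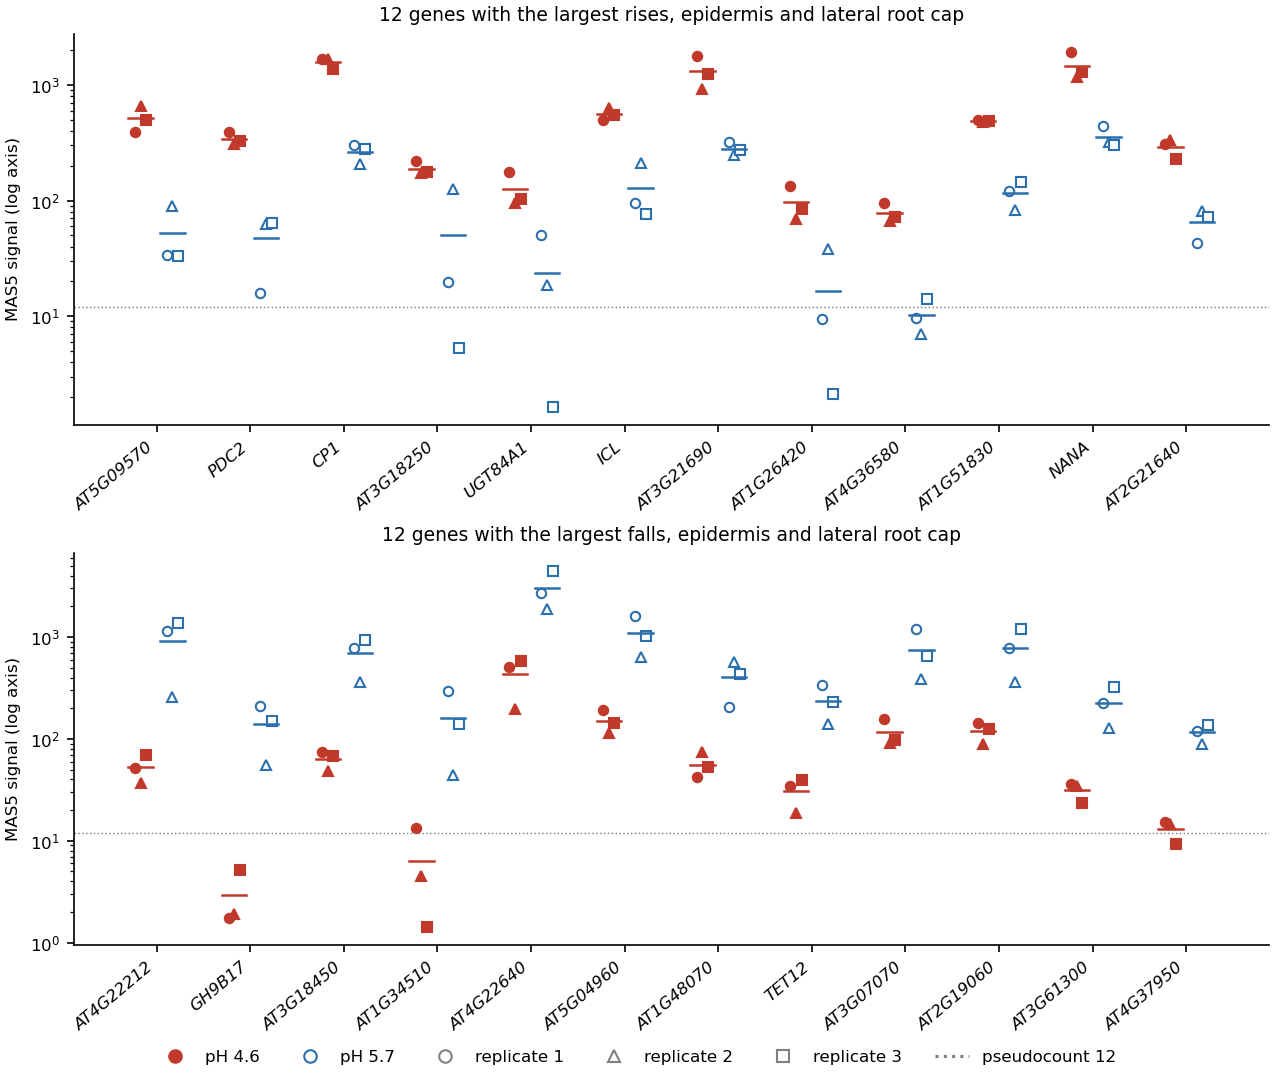
MAS5 signal (log axis) of the 12 single-gene probe sets with the largest rises (top) and falls (bottom) whose values do not overlap, in epidermis and lateral root cap at pH 4.6 (filled, left of each pair) and pH 5.7 (open, right), with replicates 1, 2 and 3 as circles, triangles and squares and bars at the mean of 3 arrays. For AT5G09570 the triangle of pH 5.7 replicate 2, at 90.4, lies nearest to the pH 4.6 values, and GH9B17 lies at 1.75 to 5.16 at pH 4.6, under the dotted line of the pseudocount of 12.

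Other large rises came from genes of various roles. CP1, a papain-type cysteine protease, had 1683, 1664 and 1364 at pH 4.6, against 304, 209 and 279 at pH 5.7, a change of 2.53 ± 0.23 (adjusted p = 4.58e-08). Every pH 4.6 value was more than 4 times the highest pH 5.7 value. NANA, an aspartic protease, had 1946, 1165 and 1289 at pH 4.6, against 442, 324 and 304 at pH 5.7 (1.99 ± 0.22, adjusted p = 1.95e-06), and the subtilase gene AT5G58840 had 180.2, 181 and 151 at pH 4.6, against 54.5, 34.7 and 23.7 at pH 5.7. AT3G21690, a carrier of the MATE family, had 1779, 925 and 1255 at pH 4.6, against 322, 249 and 271 at pH 5.7 (2.14 ± 0.26, adjusted p = 6.74e-06). AT1G51830, a leucine-rich repeat receptor kinase, stood at 499, 477 and 489 at pH 4.6, against 121, 82.8 and 146 at pH 5.7 (1.99 ± 0.27, adjusted p = 2.60e-05). It belongs to a run of related kinase genes, AT1G51790 to AT1G51910, gathered here after values were seen. Of 10 measured, AT1G51830 and AT1G51840 rose (4.41% of all probe sets did) and the other 8 did not pass. AT1G51840 lost its call without pH 4.6 replicate 2 or pH 5.7 replicate 3 (adjusted p = 0.106 to 0.108). AT1G26420, a berberine bridge enzyme-like oxidase, had 134, 69.5 and 84.5 at pH 4.6, against 9.43, 37.8 and 2.13 at pH 5.7. Its relative AT1G26380, which takes part in making an indole defence compound, was also called (2.47 ± 0.60, adjusted p = 0.0108), but pH 5.7 replicate 2 overlapped the pH 4.6 arrays (417, 170.5 and 288 at pH 4.6, against 4.79, 342 and 11.4 at pH 5.7), and the call was lost without pH 4.6 replicate 1, pH 5.7 replicate 1 or pH 5.7 replicate 3 (adjusted p = 0.0561 to 0.127).

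The 51 measured UDP-glycosyltransferases, which join sugars to small molecules, split into 6 higher, 1 lower and 44 that did not pass (4.41% and 2.12% of all probe sets were higher and lower; family median 0.03). The 6 higher became 1 without pH 5.7 replicate 3, 4 without pH 4.6 replicate 2 and 9 without pH 5.7 replicate 2. UGT84A1, which glucosylates hydroxycinnamic acids, had 177, 95.6 and 104 at pH 4.6, against 50.0, 18.8 and 1.63 at pH 5.7 (2.17 ± 0.46, adjusted p = 0.00367), and its call was lost without pH 5.7 replicate 3 (adjusted p = 0.059). UGT73C7 had 468, 496 and 419 at pH 4.6, against 121, 259 and 65.0 at pH 5.7 (1.75 ± 0.31, adjusted p = 0.000617) and kept its call without any one array. UGT74B1, which glucosylates the precursor of glucosinolates, had 725, 706 and 918 at pH 4.6, against 400.1, 527 and 358 at pH 5.7 (0.86 ± 0.20), and UGT85A2 and UGT71C5 rose by 0.67 ± 0.16 and 0.71 ± 0.20. UGT74B1 lost its call without pH 5.7 replicate 3 (adjusted p = 0.0649), UGT85A2 without pH 5.7 replicate 3 (adjusted p = 0.0669), and UGT71C5 without pH 4.6 replicate 1, pH 4.6 replicate 2, pH 5.7 replicate 1 or pH 5.7 replicate 3 (adjusted p = 0.0909 to 0.145).

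Genes of ribosome assembly were among the rises. A list of 41 assembly factors was drawn up after values were seen, partly from genes that had risen, so its count is not support for a direction. Of its 28 measured probe sets, 16 rose (4.41% of all probe sets did), none fell and all 28 had a positive change (median 1.22). AT4G30150, of the Urb2 family known from yeast, had 114, 98.5 and 132 at pH 4.6, against 33.7, 17.6 and 17.8 at pH 5.7 (1.88 ± 0.28, adjusted p = 7.27e-05), and AT4G15770, of the NIP7 family, had 347, 458 and 395 at pH 4.6, against 57.8, 178 and 132 at pH 5.7 (1.72 ± 0.28). AT3G22660, of the EBP2 family, had 82.8, 142 and 86.2 at pH 4.6, against 19.9, 47.3 and 10.1 at pH 5.7, and AT5G15750, of the IMP3 family, had 277, 285 and 350.3 at pH 4.6, against 46.0, 218 and 60.4 at pH 5.7. Their values did not overlap, and in each of these 4 except AT4G30150 the highest pH 5.7 value was that of replicate 2. The 3 partners of the PeBoW complex, which matures the large subunit, all rose: AT5G15550 (WDR12) by 1.27 ± 0.28, AT2G40360 (BOP1) by 1.32 ± 0.29 and AT5G14520 (PES) by 1.21 ± 0.32. AT2G40360 lost its call without pH 5.7 replicate 1 (adjusted p = 0.0522), and AT5G14520 without pH 4.6 replicate 2, pH 5.7 replicate 1 or pH 5.7 replicate 3 (adjusted p = 0.117 to 0.142).

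The nuclear RNA polymerases were searched by symbol, again after values were seen. Of 12 measured subunits 5 rose and none fell, where 4.41% and 2.12% of all probe sets did, and 3 rose without pH 5.7 replicate 3. NRPA2, the second subunit of polymerase I, which transcribes ribosomal RNA, had 285, 330.3 and 292 at pH 4.6, against 85.2, 122 and 49.8 at pH 5.7 (1.75 ± 0.24, adjusted p = 3.06e-05). NRPC2, its counterpart in polymerase III, had 197, 369.9 and 235 at pH 4.6, against 65.3, 105 and 51.5 at pH 5.7 (1.70 ± 0.25, adjusted p = 6.35e-05). NRPA1, the largest subunit of polymerase I, rose by 1.21 ± 0.31 but lost its call without pH 4.6 replicate 2 or pH 5.7 replicate 1 (adjusted p = 0.107 to 0.111). NRPB6A and NRPB6B, variants of a shared subunit, rose by 0.62 ± 0.15 and 0.71 ± 0.18. Both lost their calls without pH 4.6 replicate 3, pH 5.7 replicate 1 or pH 5.7 replicate 3 (adjusted p = 0.0581 to 0.0795 for NRPB6A and 0.065 to 0.14 for NRPB6B).

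Genes of growing root hairs were among the falls. Of 42 root hair genes listed 5 had a single-gene probe set in the annotation used. That annotation has no entry for 8730 of the 22746 probe sets. Of these 5 genes 3 fell (2.12% of all probe sets did), and all 5 had a negative change, with a median of -1.77. The list was chosen with earlier results of these data known, so these counts describe it and are no independent support. EXPA18 had 491, 314 and 362 at pH 4.6, against 3483, 1029 and 2026 at pH 5.7, a change of -2.31 ± 0.57 (adjusted p = 0.0122). EXPA7 had 1068, 732 and 975 at pH 4.6, against 5412, 1780.0 and 3213 at pH 5.7, a change of -1.77 ± 0.46 (adjusted p = 0.0179). The groups did not overlap, but the pH 5.7 arrays themselves spread more than 3-fold in EXPA18 and EXPA7, with replicate 2 lowest. Both lost their calls without pH 4.6 replicate 2, pH 5.7 replicate 1 or pH 5.7 replicate 3 (adjusted p = 0.0548 to 0.101 for EXPA18 and 0.071 to 0.14 for EXPA7). GSTU28, a glutathione transferase of hair cells, had 172, 160.2 and 185 at pH 4.6, against 905, 419 and 834 at pH 5.7 (-1.92 ± 0.31, adjusted p = 0.000183) and kept its call without any one array. SCN1, which confines growth to a single hair site, changed by -0.40 ± 0.17 and the receptor kinase gene AT1G51860 by -0.70 ± 0.35, and neither passed. In bulk RNA from sorted cells, fewer hair cells among those collected and less of these transcripts in each hair cell cannot be told apart.

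A wider set was taken from the profile of EXPA7 and EXPA18, both lower here, after values were seen: the 100 probe sets that followed their mean most closely over the other 24 arrays (r of at least 0.91). Those arrays include both pH values, and EXPA7 was also called lower in stele, so the counts describe the set and are no independent support for a fall. In epidermis and lateral root cap 39 of the 100 were lower and none was higher (2.12% and 4.41% of all probe sets), and the median change was -1.001. Each array's median level of the set, relative to the pH 5.7 mean, was -0.82, -1.13 and -0.91 at pH 4.6, against 0.48, -0.65 and 0.14 at pH 5.7. The 3 pH 4.6 arrays lie below all pH 5.7 arrays, and pH 5.7 replicate 2 lies nearer to them than to its own group. Without that array 56 were lower, without pH 5.7 replicate 1 only 14, without pH 5.7 replicate 3 only 17 and without pH 4.6 replicate 2 only 18, with none higher in any of these fits. The stele arrays, where EXPA7 and EXPA18 had their next highest levels, take part in setting this profile.

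Of the 100, 50 had a single gene, and 15 of those fell. AT5G04960, a pectin methylesterase, had 192, 116 and 142 at pH 4.6, against 1610.5, 630.4 and 1028 at pH 5.7 (-2.69 ± 0.52, adjusted p = 0.00155). AT3G07070, a protein kinase, had 157, 92.1 and 97.2 at pH 4.6, against 1186, 390.5 and 648 at pH 5.7 (-2.46 ± 0.34, adjusted p = 4.09e-05). AT3G12540, a gene without a role given here, had 115, 98.2 and 130.0 at pH 4.6, against 881, 308 and 595 at pH 5.7 (-2.15 ± 0.38, adjusted p = 0.000592) and followed the expansins most closely of the single-gene probe sets (r = 0.97 over 24 arrays). In these 3 genes replicate 2 was the lowest of the pH 5.7 arrays, and it still lay above every pH 4.6 value. AT4G33730, a secreted protein of the CAP family, fell by 2.07 on the log2 scale (± 0.53) but lost its call without pH 4.6 replicate 2, pH 5.7 replicate 1 or pH 5.7 replicate 3 (adjusted p = 0.0551 to 0.144).

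**Figure D2:**
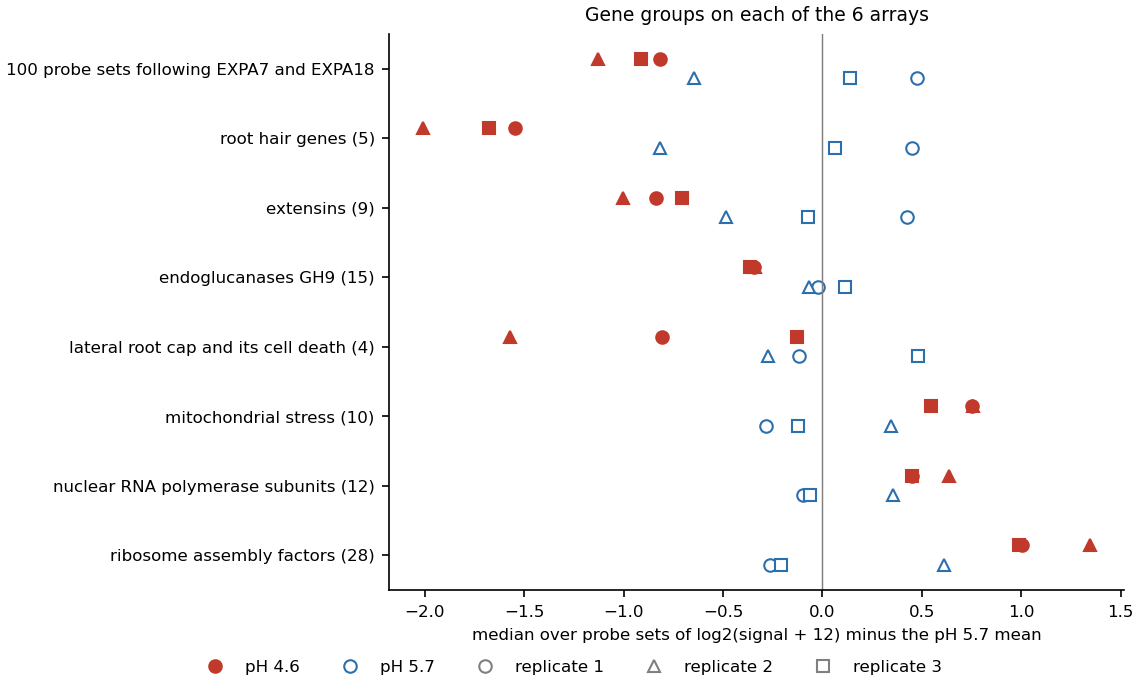
Median over the probe sets of a gene group (number in brackets) of log2(signal + 12) on each array minus the mean of the 3 pH 5.7 arrays, for pH 4.6 (filled, upper) and pH 5.7 (open, lower), replicates 1, 2 and 3 as circles, triangles and squares. In the hair groups pH 5.7 replicate 2 sits at -0.65 and -0.82 and in the ribosome assembly group at 0.61, between the pH 4.6 arrays and the other pH 5.7 arrays.

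Several wall enzyme genes fell. Of 15 measured GH9 endoglucanases, which cut wall glucans, 5 were lower (2.12% of all probe sets were) and none was higher (median -0.36), and 3 were lower without pH 5.7 replicate 3. GH9B17 had 1.75, 1.91 and 5.16 at pH 4.6, against 213, 55.7 and 152 at pH 5.7 (limma adjusted p = 6.74e-06). Its pH 4.6 values lie under the pseudocount, so no fold is given. GH9B5 had 4.86, 11.1 and 2.72 at pH 4.6, against 58.1, 36.6 and 67.8 at pH 5.7 (adjusted p = 0.00176), again under the pseudocount at pH 4.6, and GH9B6 had 29.4, 29.4 and 27.7 at pH 4.6, against 74.1, 192 and 68.6 at pH 5.7 (-1.46 ± 0.30, adjusted p = 0.0029). GH9B17, GH9B5 and GH9B6 kept their calls without any one array. GH9B18 (-1.56 ± 0.46) lost its call without pH 4.6 replicate 2, pH 4.6 replicate 3, pH 5.7 replicate 1 or pH 5.7 replicate 3 (adjusted p = 0.0554 to 0.331), and GH9B13 (-0.88 ± 0.25) without pH 4.6 replicate 3, pH 5.7 replicate 2 or pH 5.7 replicate 3 (adjusted p = 0.05 to 0.145). GH9B6 was highest in pH 5.7 replicate 2, unlike the hair genes.

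Class III peroxidases, which cross-link or loosen walls with hydrogen peroxide, moved both ways. The family was taken whole after values were seen: of 55 measured members 4 rose and 6 fell (4.41% and 2.12% of all probe sets; family median -0.06). The 6 falls became 2 without pH 5.7 replicate 3, 3 without pH 4.6 replicate 2 and 7 without pH 5.7 replicate 2. AT1G34510 had 13.3, 4.47 and 1.43 at pH 4.6, against 294, 44.5 and 139 at pH 5.7 (adjusted p = 0.000569), with all pH 4.6 values near or under the pseudocount. AT2G39040 had 904, 641 and 620.1 at pH 4.6, against 2239, 2359.7 and 2316 at pH 5.7 (-1.68 ± 0.38, adjusted p = 0.00601), a tight set at pH 5.7. AT4G26010, a peroxidase of root hairs, had 2106, 773 and 1944 at pH 4.6, against 5604, 2427 and 5051 at pH 5.7 (-1.47 ± 0.44) and lost its call without pH 4.6 replicate 2, pH 5.7 replicate 1 or pH 5.7 replicate 3 (adjusted p = 0.182 to 0.305). Among those that rose, AT5G64120 (PRX71) had 1757, 1041 and 2118 at pH 4.6, against 441, 303 and 508 at pH 5.7 (1.91 ± 0.39, adjusted p = 0.00264), and AT4G33420 had 205, 137 and 186 at pH 4.6, against 45.0, 41.8 and 37.9 at pH 5.7 (1.79 ± 0.33, adjusted p = 0.000957). AT5G64110, which neighbours AT5G64120, rose by 1.57 ± 0.33. AT5G39580 had 1886, 902 and 895 at pH 4.6, against 208, 874 and 167 at pH 5.7, where the lowest pH 4.6 and the highest pH 5.7 value nearly met, and its call was lost without pH 5.7 replicate 3 (adjusted p = 0.071).

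Extensins, the hydroxyproline-rich rods of the wall, had 3 lower (2.12% of all probe sets were) and none higher of 9 measured (median -0.67), again a family gathered after values were seen. HRGP1 had 556, 305 and 530.0 at pH 4.6, against 1969, 801 and 1121 at pH 5.7 (-1.41 ± 0.32, adjusted p = 0.00658), and AT4G08410 had 49.3, 52.0 and 63.8 at pH 4.6, against 250.3, 125 and 146 at pH 5.7 (-1.42 ± 0.34, adjusted p = 0.00927). Their probe sets, and that of AT5G06630 (-1.48 ± 0.40), may also read near copies. HRGP1 lost its call without pH 4.6 replicate 2 or pH 5.7 replicate 1 (adjusted p = 0.0768 to 0.0804), AT4G08410 without pH 5.7 replicate 1 (adjusted p = 0.086), and AT5G06630 without pH 4.6 replicate 2, pH 4.6 replicate 3 or pH 5.7 replicate 1 (adjusted p = 0.0662 to 0.232). Of 19 expansins EXPA7 and EXPA18 alone were called, so 17 other members did not pass, and the family median was -0.10. The xyloglucan endotransglucosylases, 10 measured, had XTH29 higher (1.16 ± 0.28) and XTH33 (-1.03 ± 0.28) and XTH26 lower (4.41% and 2.12% of all probe sets were higher and lower). XTH26 had 3.93, 7.40 and 1.28 at pH 4.6, against 41.1, 10.7 and 12.1 at pH 5.7. Most of these values lie near or under the pseudocount, so the size for XTH26 (-0.94 ± 0.23) depends on that pseudocount. XTH29 had 79.6, 63.8 and 75.0 at pH 4.6, against 36.4, 18.4 and 24.6 at pH 5.7 and kept its call without any one array. XTH33 lost its call without pH 4.6 replicate 3, pH 5.7 replicate 1 or pH 5.7 replicate 3 (adjusted p = 0.0784 to 0.16), and XTH26 without pH 4.6 replicate 3 or pH 5.7 replicate 1 (adjusted p = 0.0675 to 0.138).

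The largest fall among single-gene probe sets with values that did not overlap was outside the wall. AT4G22212, which encodes a defensin-like peptide, had 51.8, 36.7 and 69.7 at pH 4.6, against 1138, 260.3 and 1374 at pH 5.7, a change of -3.58 ± 0.41 (adjusted p = 2.75e-06). AT3G18450, of the PLAC8 family, had 74.3, 48.3 and 67.4 at pH 4.6, against 787, 362 and 936 at pH 5.7 (-3.14 ± 0.35, adjusted p = 1.95e-06), and AT4G22640 had 509, 195 and 584 at pH 4.6, against 2701, 1889.9 and 4436 at pH 5.7 (-2.83 ± 0.41, adjusted p = 6.18e-05). In these 3 genes replicate 2 was again the lowest pH 5.7 array. TET12, a tetraspanin of the plasma membrane, had 34.8, 18.7 and 39.7 at pH 4.6, against 341, 140.1 and 229 at pH 5.7 (-2.48 ± 0.36, adjusted p = 5.84e-05), the only call among 15 tetraspanins. AT4G31250, a receptor kinase of the leucine-rich repeat type, had 154, 83.4 and 150.5 at pH 4.6, against 826, 261 and 473 at pH 5.7 (-1.81 ± 0.28, adjusted p = 0.000145). AT1G48070 differed from these in its replicates, with 42.2, 73.6 and 52.4 at pH 4.6, against 204, 568 and 436 at pH 5.7 (-2.52 ± 0.28, adjusted p = 1.18e-06) and its highest value in pH 5.7 replicate 2.

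Genes of the lateral root cap and its death gave lower values without a call. All 4 measured members had a negative change, with a median of -0.71. AT4G04460 (PASPA3) had 1469.5, 909.5 and 2857 at pH 4.6, against 2794, 2939 and 3597 at pH 5.7 (-0.98 ± 0.36, adjusted p = 0.109), and pH 4.6 replicate 3 overlapped the pH 5.7 arrays. AT2G14095 (EXI1), which acts in the death of cap cells, had 359, 182 and 536 at pH 4.6, against 652, 564 and 1337 at pH 5.7 (-1.24 ± 0.39, adjusted p = 0.0522) and did not pass. AT4G18425 (-0.44 ± 0.44) and the carboxypeptidase gene scpl48 (-0.39 ± 0.36) overlapped. AT1G65570, a polygalacturonase of root cap cells (RCPG), was not on the list but was among the 20 largest falls, with 279, 117 and 541 at pH 4.6, against 1050.0, 1278 and 1519 at pH 5.7 (-2.22 ± 0.43, adjusted p = 0.00151).

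In the list of carbon shortage and amino acid breakdown 2 probe sets rose and 2 fell of 9 measured, where 4.41% and 2.12% of all probe sets did. IVD, isovaleryl-CoA dehydrogenase of leucine breakdown, had 428, 510.3 and 542 at pH 4.6, against 302, 307 and 307 at pH 5.7 (0.67 ± 0.14, adjusted p = 0.00358), and ASPGB1, an asparaginase, had 496, 574 and 731 at pH 4.6, against 315, 348 and 267 at pH 5.7 (0.92 ± 0.22), a call lost without pH 4.6 replicate 3 or pH 5.7 replicate 3 (adjusted p = 0.0699 to 0.076). AT4G33150, the enzyme that degrades lysine, was lower at 262, 218 and 429 at pH 4.6, against 478, 594 and 762 at pH 5.7 (-1.02 ± 0.21, adjusted p = 0.00263). GAT1_2.1, a glutamine amidotransferase, fell on one of its probe sets with 23.58, 3.75 and 2.34 at pH 4.6, against 214, 53.8 and 55.1 at pH 5.7 (adjusted p = 0.00161). Its other probe set gave 17.8, 2.63 and 2.61 at pH 4.6, against 1.53, 17.1 and 1.59 at pH 5.7 and was not called. These values lie near or under the pseudocount, so that probe set could not show a fall. The rest of the 9 probe sets of the list did not pass (list median 0.26).

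Calls in further lists and families were few (4.41% of all probe sets rose and 2.12% fell). LTI30, a dehydrin, had 4721, 4836 and 6066 at pH 4.6, against 2163, 2469.9 and 2179 at pH 5.7 (1.19 ± 0.16, adjusted p = 1.60e-05), and the other 3 measured genes of the abscisic acid list did not pass, COR47 among them (-0.28 ± 0.28). ATG8B, which coats autophagosomes, had 82.9, 125 and 92.2 at pH 4.6, against 26.4, 27.3 and 32.8 at pH 5.7 (1.44 ± 0.25, adjusted p = 0.000547). ATG8D rose by 0.66 ± 0.17 but lost its call without pH 4.6 replicate 3 or pH 5.7 replicate 1 (adjusted p = 0.104 to 0.108), and the other 9 autophagy genes did not pass. GLR2.7, a glutamate receptor-like channel, had 84.4, 62.4 and 78.0 at pH 4.6, against 19.4, 31.2 and 22.5 at pH 5.7 (1.26 ± 0.24, adjusted p = 0.00146). SWEET16, a sugar carrier of the vacuole, was lower at 84.3, 56.7 and 69.1 at pH 4.6, against 177, 133 and 277 at pH 5.7 (-1.30 ± 0.27, adjusted p = 0.00247), alone among 19 sugar transporters. Of 8 aldehyde dehydrogenases 3 rose (4.41% of all probe sets did), and 1 did without pH 4.6 replicate 2 or pH 5.7 replicate 3. The rise was largest in ALDH10A9 (0.70 ± 0.15, adjusted p = 0.00371). ALDH10A8 (0.53 ± 0.14) lost its call without pH 4.6 replicate 2, pH 5.7 replicate 1 or pH 5.7 replicate 3 (adjusted p = 0.0805 to 0.158), and ALDH7B4 (0.48 ± 0.14) without pH 4.6 replicate 2, pH 4.6 replicate 3, pH 5.7 replicate 1 or pH 5.7 replicate 3 (adjusted p = 0.107 to 0.164).

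Lists tied to acid soils and nutrients gave few calls. Of 17 proton and aluminium tolerance genes 2 had a single-gene probe set in the annotation used. AT1G51340, a citrate carrier (MATE), had 43.3, 29.6 and 26.4 at pH 4.6, against 22.0, 1.61 and 12.1 at pH 5.7 (0.99 ± 0.39, adjusted p = 0.132). AT5G01720 (RAE1), an F-box protein, had 51.5, 38.5 and 35.9 at pH 4.6, against 34.5, 21.8 and 26.9 at pH 5.7 (0.44 ± 0.28, adjusted p = 0.436). Neither passed. The groups did not overlap, as in 19.9% of all probe sets. Of 4 iron genes BGLU42 alone rose (0.63 ± 0.16, adjusted p = 0.015), where 4.41% of all probe sets did. Its call was lost without pH 4.6 replicate 2, pH 5.7 replicate 1 or pH 5.7 replicate 3 (adjusted p = 0.0761 to 0.0858). AT3G13610, an enzyme of coumarin synthesis (F6'H1), had 1663, 778 and 1215 at pH 4.6, against 1456, 635 and 1622 at pH 5.7, values that overlap. The phosphate and the nitrogen and potassium lists had no gene with a single-gene probe set in the annotation used.

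Of the 43 families searched by symbol, 18 had a call, 15 had matches and no call, and 10 had no match among the single-gene probe sets. Symbols can also match genes outside a family. PEX4 and PRP39, the only matches for extensins and proline-rich wall proteins, are such genes, and neither was called. None of 22 cytochromes P450, 7 WRKY factors, 7 bHLH factors, 5 auxin-conjugating GH3 enzymes or 4 subunits of vacuolar proton pumps passed. Over all probe sets 4.41% rose and 2.12% fell. Among 13 glutathione transferases GSTU27 rose (0.77 ± 0.22), and GSTU26 (-0.82 ± 0.22) and GSTU28 (-1.92 ± 0.31, given above) fell. IAA18 rose among 7 early auxin genes (1.05 ± 0.28). Among 22 beta-glucosidases BGLU15 (-1.13 ± 0.25), BGLU16 (-0.89 ± 0.24) and BGLU25 (-0.63 ± 0.17) fell, and BGLU42 (0.63 ± 0.16, given above) rose. TBL41 (-1.41 ± 0.41) and TBL37 (-0.85 ± 0.21) fell among 24 probe sets of trichome birefringence-like proteins, which acetylate wall polymers. CSLC12 (-1.20 ± 0.32) fell among 8 cellulose synthase-like genes, and scpl29 (-0.75 ± 0.15) among 29 carboxypeptidase-like genes. GSTU27 lost its call without any one of the 6 arrays (adjusted p = 0.0521 to 0.128). GSTU26, BGLU16 and TBL41 lost theirs without pH 4.6 replicate 2, pH 4.6 replicate 3, pH 5.7 replicate 1 or pH 5.7 replicate 3 (adjusted p = 0.0684 to 0.214). BGLU25 without pH 4.6 replicate 1, pH 4.6 replicate 2, pH 5.7 replicate 1 or pH 5.7 replicate 3 (adjusted p = 0.0577 to 0.114), TBL37 without pH 4.6 replicate 3, pH 5.7 replicate 1 or pH 5.7 replicate 3 (adjusted p = 0.057 to 0.0946) and IAA18 without pH 4.6 replicate 1, pH 4.6 replicate 3 or pH 5.7 replicate 2 (adjusted p = 0.0597 to 0.104) were no longer called. CSLC12 lost its call without pH 4.6 replicate 2 or pH 5.7 replicate 1 (adjusted p = 0.129 to 0.159) and BGLU15 without pH 5.7 replicate 1 (adjusted p = 0.0602).

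Markers of the neighbouring tissues were summed on each array. The summed signal of the 5 cortex markers was 118 to 145 at pH 4.6 and 173 to 365 at pH 5.7. Of these 5 markers, 2 were called lower (2.12% of all probe sets were). AT1G62510 had 55.2, 63.6 and 81.3 at pH 4.6, against 243, 95.4 and 157 at pH 5.7. AT3G21670, a nitrate transporter gene (NPF6.4), had 13.2, 5.35 and 18.5 at pH 4.6, against 41.5, 22.6 and 50.5 at pH 5.7. AT1G62510 lost its call without pH 4.6 replicate 1, pH 4.6 replicate 2, pH 5.7 replicate 1 or pH 5.7 replicate 3 (adjusted p = 0.1 to 0.217), and AT3G21670 without pH 4.6 replicate 2, pH 5.7 replicate 1 or pH 5.7 replicate 3 (adjusted p = 0.0809 to 0.149). The sums of 3 endodermis markers (88.9 to 125 at pH 4.6 and 86.3 to 189.9 at pH 5.7) and of 2 stele markers (160.7 to 324 at pH 4.6 and 122 to 235 at pH 5.7) overlapped, and none of these 5 genes passed. The stele sum came mostly from LHW, which had 128, 269 and 121 at pH 4.6, against 116, 183 and 88.3 at pH 5.7 and was highest in replicate 2 of both. JKD of the cortex list averaged 8.39 in these arrays, under the pseudocount. The part of such cells in the results was not tested.

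Many of these probe sets were also called in other cell types, whose group means come from other arrays. All calls come from the same fit to 30 arrays and share its estimate of scatter. The overlaps are therefore not counts of independent calls. Of the 1003 probe sets higher here, 607 were also called higher in cortex (7.98% of all probe sets), 517 in endodermis (6.47%), 403 in columella (7.01%) and 287 in stele (2.80%), and 260 in none of them. Of the 482 lower here, 141 were also lower in cortex (4.99% of all), 129 in endodermis (4.77%), 117 in columella (7.65%) and 110 in stele (1.86%), and 198 in none. A share called in one tissue and not in another does not show a difference, which was tested as a contrast of its own below. Placed by the other cell type where they were brightest at pH 5.7, probe sets brightest in stele had 227 of 4120 lower and 139 higher, those brightest in columella 114 of 9028 lower and 493 higher, in cortex 73 of 4310 lower and 156 higher, and in endodermis 68 of 5288 lower and 215 higher (2.12% lower and 4.41% higher over all probe sets).

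Among the 20 largest rises, AT5G09570, ICL, AT4G36580, AT2G18900, AT5G15700, AT5G02050 and AT2G21640 were called higher in all 4 other cell types. PDC2 rose in cortex, endodermis and stele by 3.04, 3.08 and 2.38 and had -0.32 in columella. Among the 20 largest falls, 9 were also lower in stele, 3 in cortex, 3 in endodermis and 1 in columella. AT3G18450 changed by -3.30 in stele and AT4G22640 by -3.13, against -3.14 ± 0.35 and -2.83 ± 0.41 in epidermis and lateral root cap.

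**Figure D3:**
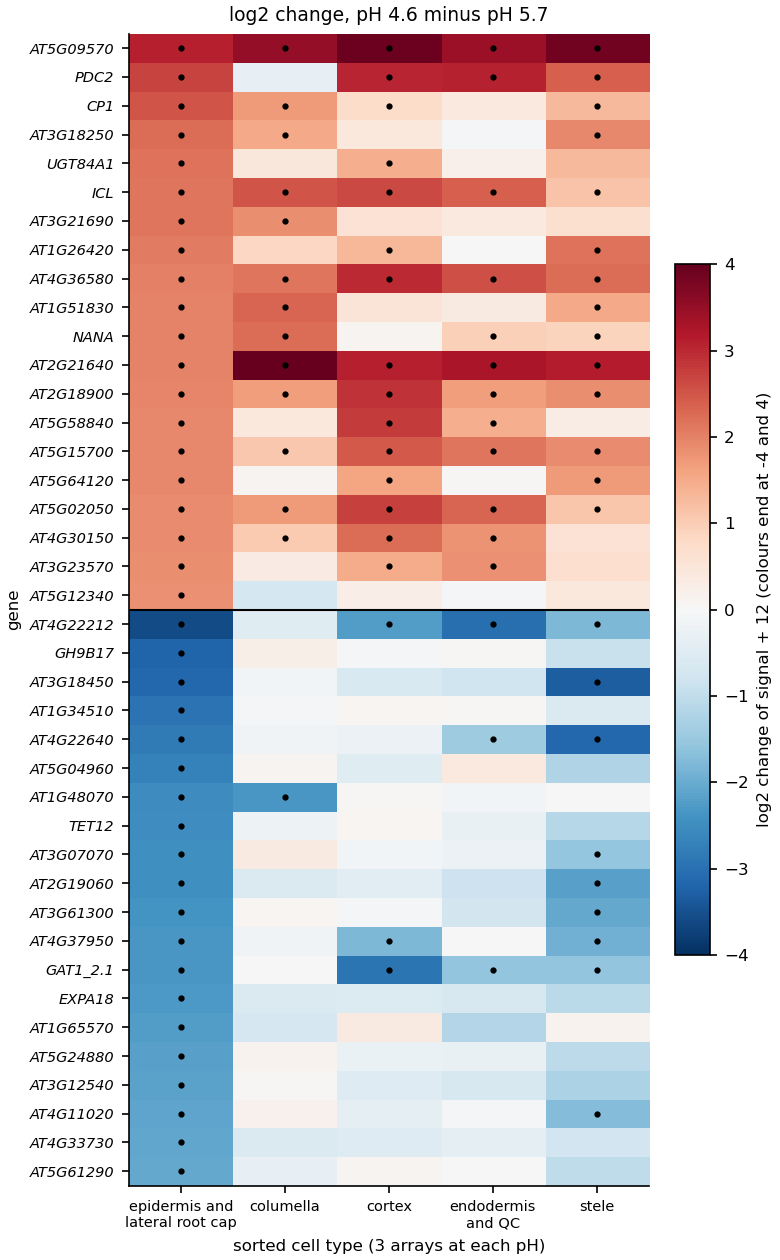
log2 change of signal + 12, pH 4.6 minus pH 5.7, of the 20 largest rises (above the line) and 20 largest falls (below) in epidermis and lateral root cap and in the other 4 cell types, 3 arrays at each pH, with a black dot where the limma adjusted p is under 0.05. The first column is coloured throughout because it chose the genes, AT5G09570 is high in every column, and GH9B17 has pale cells in the other 4.

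The response itself differed from the mean response of the other 4 cell types in 216 probe sets, higher in 98 (0.431% of those tested) and lower in 118 (0.519%). Without pH 5.7 replicate 2 the count was 443, and without any other single array it was 74 to 134. Of the 216, 103 were also called in epidermis and lateral root cap, and the other 113 were not. Values of both sides are therefore given.

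Higher than the mean of the others were CP1, by 1.49 ± 0.25 (adjusted p = 0.00224), and AT5G12340, by 1.86 ± 0.34 (adjusted p = 0.00496). CP1 also rose in columella (1.71), cortex (0.75) and stele (1.31), whereas AT5G12340 had 320.3, 322 and 329 at pH 4.6, against 92.8, 114 and 50.0 at pH 5.7 here and changes of -0.71 to 0.41 elsewhere. AT2G04400, indole-3-glycerol phosphate synthase of tryptophan synthesis, had 1488, 2068 and 1356 at pH 4.6, against 733, 566 and 459 at pH 5.7 (1.47 ± 0.22) and differed by 1.21 ± 0.24 (adjusted p = 0.011). The difference for AT2G04400 had an adjusted p above the threshold without pH 4.6 replicate 2 or pH 5.7 replicate 3 (0.0815 and 0.0816). AT5G20180 had 500.0, 636 and 503 at pH 4.6, against 263, 274 and 264 at pH 5.7 here and changes of -0.06 to 0.16 elsewhere, with a difference of 0.93 ± 0.17 (adjusted p = 0.00489).

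Several genes that rose in other cell types rose less or did not pass here. AT2G41730 differed by -2.45 ± 0.28 (adjusted p = 1.41e-05): it rose by 6.71 in columella and by 1.89 to 2.93 in the other 3, and by 1.15 here. AT2G21640 differed by -1.75 ± 0.31 (adjusted p = 0.00442), with 5.41 in columella. AT2G32020, an acetyltransferase-like gene, had 664, 683 and 544 at pH 4.6, against 619, 724 and 609.9 at pH 5.7 here, values that overlap, and rose by 0.74 to 2.29 elsewhere. AT5G40690 had 952, 722 and 918 at pH 4.6, against 818, 421 and 929 at pH 5.7 here, also overlapping, and rose by 1.30 to 3.40 elsewhere, and AT1G24095 had 232, 185 and 292 at pH 4.6, against 289, 275 and 363 at pH 5.7 here and rose by 1.60 to 2.65 in cortex, endodermis and stele. Their differences were -1.55 ± 0.20, -2.03 ± 0.29 and -1.84 ± 0.23.

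Other genes fell more here than on average elsewhere. GH9B17 passed this test (adjusted p = 0.000389), with a size that the pseudocount sets in part and a mean of 15.1 and 42.0 in stele at pH 4.6 and pH 5.7. AT1G48070 differed by -1.93 ± 0.31 (adjusted p = 0.00123), although it also fell in columella by 2.32 on the log2 scale. AT4G31250 differed by -1.80 ± 0.32 (adjusted p = 0.00345), TET12 by -2.09 ± 0.40 (adjusted p = 0.00788) and AT3G07070 by -2.08 ± 0.38 (adjusted p = 0.00496). EXPA18 and EXPA7 did not pass this test (-1.60 ± 0.64 and -1.09 ± 0.52, adjusted p = 0.307 and 0.435).

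**Figure D4:**
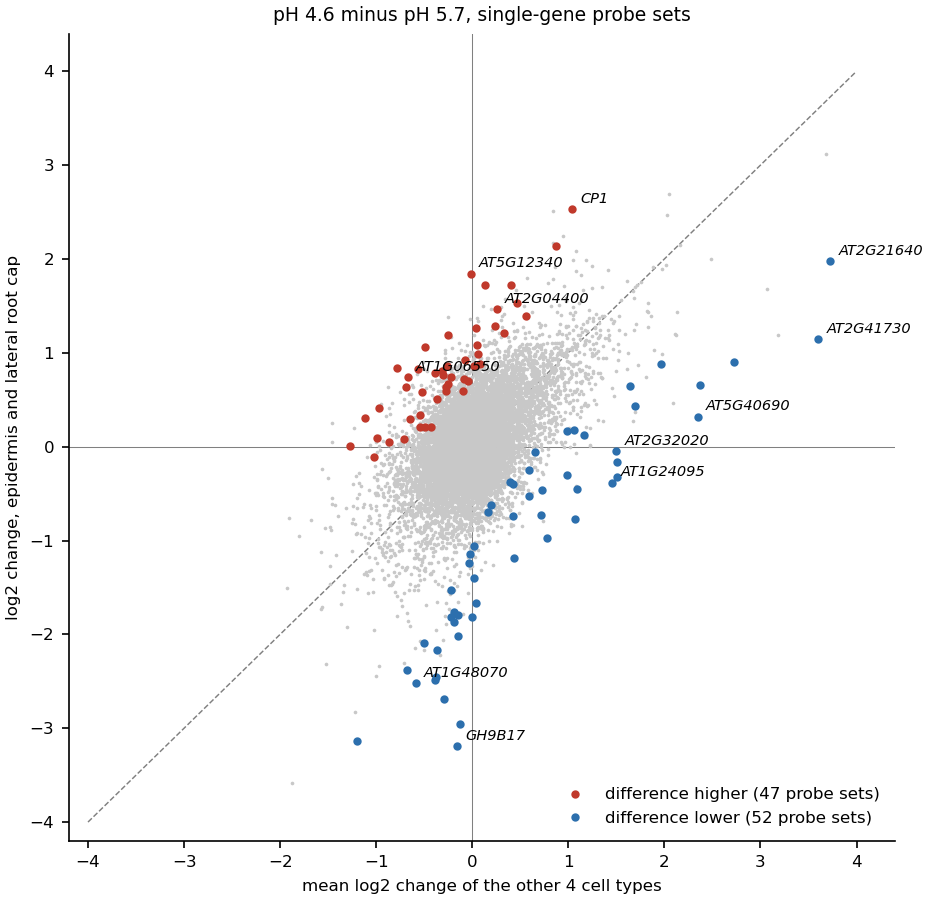
log2 change at pH 4.6 minus pH 5.7 in epidermis and lateral root cap (vertical) against the mean log2 change of the other 4 cell types (horizontal) for 13436 single-gene probe sets, with those whose difference passed the threshold in red (47, higher) and blue (52, lower) and equality as a dashed line. AT2G21640 and AT2G41730 lie far right, below the line, and GH9B17 lies at the bottom near 0 on the horizontal axis.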

How the data were processed

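The deposited values were MAS5 probe set signals, an intensity on a linear scale made by the authors with MAS5, per the submitters' processing notes (version and genome build not given in the sources used here). Per the labels' protocols, RNA of sorted protoplasts was amplified in 2 cycles. Detection calls were not used here, and the number of arrays limits the precision.

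A total of 64 control probe sets were left out of 22810. Signals were taken as log2(signal + 12), which understates changes of dim genes, and fitted with limma 3.58.1 in R 4.3.3 (eBayes with intensity trend, 30 arrays, 10 group means, 20 residual degrees of freedom). Contrasts were pH 4.6 minus pH 5.7 in epidermis and lateral root cap, and that response minus the mean response of the other 4 cell types. P-values were 2-sided, Benjamini-Hochberg adjusted over 22746 probe sets, and called under 0.05. Tables were made with pandas 2.3.3, and the fit was tested on simulated data.

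Genes come from the platform annotation, with names updated through RefSeq, and only probe sets with a single gene (13436) were named, so levels of different probe sets are not compared. The annotation had no entry for 8730 probe sets, so a gene counted as not measured may still have a probe set on the array. Named genes were the 20 largest rises and 20 largest falls whose values do not overlap, up to 5 called members of each of 17 lists and 43 families (matched by symbol or synonym), the members of the epidermis lists, and genes of the second contrast with the smallest p. Members and lists were chosen with earlier results of these data known. A further 5 lists and the hair profile were added after values were seen. Alternatives were other pseudocounts, scalings, filters, fits and left-out arrays. Promoters and proteins were not used here.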

Additional observations from a re-analysis of the deposited data

Results flagged for a closer look

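For 34 named genes the response of the epidermis and lateral root cap differed from the mean response of the other 4 cell types, by the limma contrast of the difference itself (adjusted p under 0.05). Values are differences of log2 changes. For GH9B17, AT1G34510 and AT5G54095, whose pH 4.6 signals here lay near or under the pseudocount of 12, the size depends on that pseudocount. Groups of 3 arrays are too small for a check of single outlying arrays.

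The response was higher for 14 genes. AT5G12340 (1.86), the protease gene CP1 (1.49), AT1G06550 (1.41) and the MATE carrier gene AT3G21690 (1.27) led. GLR2.7 (1.22), AT2G04400 (1.21), UGT74B1 (1.13), AT1G73650 (1.07), GSTU27 (1.07) and AT1G68650 (1.06) followed. The kinesin gene AT5G66310 (1.00), AT2G36885 (0.97), AT5G20180 (0.93) and ALDH10A9 (0.74) were smaller.

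The response was lower for 20 genes. The endoglucanase gene GH9B17 (-3.03), the peroxidase gene AT1G34510 (-2.83), the pectin methylesterase gene AT5G04960 (-2.40), TET12 (-2.09) and the kinase gene AT3G07070 (-2.08) had fallen here. So had AT3G18450 (-1.94), AT1G48070 (-1.93), the receptor kinase gene AT4G31250 (-1.80), AT5G24880 (-1.80), AT3G61300 (-1.70), AT4G11020 (-1.60) and AT5G54095 (-1.75). AT2G41730 (-2.45), AT2G21640 (-1.75) and NDB4 (-1.09) rose here, but by less than on average elsewhere. AT5G40690 (-2.03), AT1G24095 (-1.84), the MATE carrier gene AT2G04050 (-1.72), AT2G32020 (-1.55) and the pyruvate kinase gene AT5G56350 (-1.04) did not pass the test here.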

How the results depend on the processing

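The 1485 probe sets called became 161 in a fit to the 6 arrays alone, 2695 with array weights and 804 with a 2-fold size limit, and 677 to 2374 with 1 array left out. The 216 differences from the other cell types became 366 with the median of all values as pseudocount and 74 to 443 with 1 array left out. Other settings moved these counts by less than 1.5 times. With the replicate number as a block 1576 and 217 were called. The numbers were not taken to pair the arrays: arrays of the same number correlated at 0.13, 0.14 and 0.09 in their deviations, and not every array correlated best with its own number.

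Named genes changed sign only where they passed neither as reported nor under that setting. AT4G28100 had -0.00085 with the median as pseudocount, -0.0768 with quantile normalization, -0.098 with equal medians and -0.139 to 0.298 with 1 array left out. PHV had -0.0445 with quantile normalization, -0.0723 with equal medians and -0.0978 to 0.19 with 1 array left out. NDB2 had -0.0709 with equal medians and -0.0901 to 0.167 with 1 array left out. AT3G13610 had -0.0945 with equal medians, -0.0965 with array weights and -0.398 to 0.308 with 1 array left out. With 1 array left out AT4G18425 had -0.764 to 0.0351, AT1G72490 -0.387 to 0.0865, AT2G32020 -0.109 to 0.0516, AT5G56350 -0.0398 to 0.226, AT5G40690 -0.0229 to 0.537 and AT5G51440 -0.00304 to 0.439. The cause was not tested. Of the values of named genes, 67 lost their call in the fit to the 6 arrays alone, which has fewer samples, and 20 with a pseudocount of 1. Leaving out pH 5.7 replicate 3 lost 32, pH 5.7 replicate 1 lost 29 and pH 4.6 replicate 2 lost 25, and each other array lost fewer. Of all 782 single-gene calls, 234 held whichever of the 6 arrays was left out (168 risen and 66 fallen). Signals near the pseudocount of 12 limit what can be said of dim genes.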
